A study of Mus musculus with 24 samples.

Results

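The collagen and laminin genes of the mouse adrenal gland were taken as every non-control array feature whose gene name in the raw files is Col, a number, a and a number (such as Col1a1), or Lama, Lamb or Lamc followed by a digit. Of such genes, 51 are reported here. Of these, 45 had at least 1 probe well above background on 3 or more of the 24 arrays and are the measured members, among 26372 genes and other named features that passed the same filter. They are 35 collagens and 10 laminin chains, each read from its brightest passing probe. The name rule and the filter used no test between groups, though the members were chosen with earlier results of these data known. A gene could also pass the filter through the arrays of 1 sex alone, as Col24a1 did. The other 6 (Col2a1, Col6a6, Col9a3, Col10a1, Col17a1 and Col19a1) were well above background on at most 1 array and were not analysed further.

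Collagens are triple helices of alpha chains in which glycine recurs at a fixed spacing. The fibrillar types give tissue its tensile fibres, type IV forms the sheet-like network of basement membranes, and FACIT, beaded-filament, transmembrane and multiplexin collagens decorate or link these structures. Laminins are cross-shaped trimers of 1 alpha, 1 beta and 1 gamma chain that assemble on cell surfaces and organise the basement membrane with type IV collagen. In the adrenal gland a fibrous capsule surrounds the steroid-producing cortex, and basement membrane lines the sinusoids and surrounds the cords of cortical cells.

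Adrenal gland RNA of C57BL/6 mice in 8 groups of 3 was measured on 24 single-channel (one-colour) Agilent microarrays. The mice were wild type (WT) or Kcnk3 null, a line without the potassium channel gene Kcnk3, which is expressed in cortical cells. Males of each genotype were sham-treated or castrated, and females were sham-treated or injected with testosterone. The design so compares genotype, sex and androgen state, and whether the genotype difference depends on androgen state. Age, time after treatment, testosterone dose, how the null allele was made and whether RNA of several animals was pooled are not given in the sources used here. The labels number 3 samples in each group without naming animals, so a p-value measures the spread between those samples.

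Every level below is log2 of the processed spot signal minus the 75th percentile of that array, so that 0 is the array's 75th percentile and 1 unit is a doubling. Levels describe 1 probe across arrays and are not set against those of another probe. A difference is given with its standard error from one limma fit of the 8 groups, and was called where its p-value, adjusted by Benjamini-Hochberg over all 26372 features, was under 0.05. In bulk tissue, a change in the number of cells of a type and a change in RNA per cell cannot be told apart.

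The 75th percentile signal of the arrays was 423 to 1092, and 57.0 to 64.7% of their spots were well above background. In 9 arrays the transcripts of the opposite sex reached at least 10% of their level in that sex. These are WT sham female replicates 2 and 3, all 3 WT testosterone females, and replicates 1 and 2 of the null sham and of the null castrated males. Y-linked signal in the 5 female-labelled arrays was 19.7 to 54.9% of the male level. Xist in the 4 male-labelled arrays was 17.5 to 58.2% of the female level. Below the 10% cut, null sham and null castrated male replicates 3 had Xist at 6.08 and 4.15%, against 0.56 to 1.11% in WT males. WT sham female replicate 1 had the Y-linked Ddx3y at 0.91%, against 0.0964 to 0.186% in null females. Every WT female and null male array so lay above all arrays of the other genotype of its sex. This signal cannot be separated from genotype in the null against WT comparisons, and its part was not tested. Transcripts of liver (summed level 642 and 963 against 3.76 to 16.9 elsewhere) stood out in WT sham male replicate 3 and null testosterone female replicate 1. WT sham and WT testosterone female replicates 3 lay alone on the fourth slide, with an RNA integrity number of 3. Kcnk3 signal, relative to WT sham of the same sex, was 15.96 to 22.1% in null castrated males, 12.1 to 29.9% in null sham females and 5.66 to 11% in null testosterone females, but 34.6 to 69.0% in the arrays labelled null sham males, against 66.4 to 71.8% in WT testosterone females. Whether the probe lies in the deleted part is not given, and groups are named by their labels. Each pair comparison with a call below was also computed without the 9 arrays. That leaves 1 array each for WT sham females, null sham males and null castrated males, assumed to vary like the others. These arrays still hold the smaller opposite sex-linked signal given above. No value is left for WT testosterone females, and so none for the average of the 4 pairs or the genotype by testosterone term.

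Of the 45 members, 38 were called in none of the 13 comparisons, and the called differences came from the other 7: Lama4, Col4a6, Col18a1, Col5a2, Col6a4, Col22a1 and Col23a1. In castrated males, null against WT, 2 of 45 members (4.44%) were called, Col4a6 higher and Col18a1 lower, where 0.777% of all features were (0.489% higher, 0.288% lower). In sham females, null against WT, 1 member, Col4a6, was called, and it was higher, against 0.675% of features (0.447% higher). No member was called between null and WT in sham males (0.0303% of features; 4 members at an unadjusted p under 0.05) or in testosterone-treated females (0.0379%; 6 members at an unadjusted p under 0.05) by limma. The median difference of the 45 members was 0.14 in sham males, 0.16 in castrated males, 0.12 in sham females and -0.11 in testosterone-treated females. Over all features the corresponding medians were -0.02, 0.00, -0.02 and -0.02. The null against WT difference averaged over these 4 pairs was called for Col4a6 and Col23a1, both higher, against 2.84% of features (1.5% higher).

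Castration of null males gave 2 called members, Col4a6 higher and Col18a1 lower (1.27% of features, 0.569% higher and 0.698% lower), and castration of WT males none (0.694% of features; 3 members at an unadjusted p under 0.05). Testosterone gave 2 called members in null females, both lower (0.269% of features, 0.235% lower), and none in WT females (0.14%; 15 members at an unadjusted p under 0.05). Sham females against sham males gave 3 called members in WT, all higher in females (2.55% of features, 1.54% higher), and 4 in null mice, 3 higher and 1 lower (1.02%, 0.493% higher and 0.523% lower). No member was called by limma in either interaction, which asks whether the genotype difference itself depended on treatment, in males (0.0948% of features called; 4 members at an unadjusted p under 0.05) or in females (0.114%; 9 members at an unadjusted p under 0.05). The comparisons share groups: null castrated males enter 2 of the 10 pair comparisons and null sham females 3, so these are not independent of each other. In the genotype by testosterone term 35 of the 45 members lay below 0, with a median of -0.36 against 0.00 over all features. That is 77.8% of the members, where 49.4% of all features lay below 0. Medians of marker lists in the same term were -0.48 for capsule and stroma, -0.47 for macrophage and -0.45 for chromaffin markers. They were -0.31 for mural, -0.30 for endothelial, -0.68 for blood and 0.16 for adrenocortical markers. Liver markers had 3.08, a value that null testosterone female replicate 1, with liver transcripts, enters. The medians of the Schwann and adipocyte lists are not given here. The part of other cells in the members' values was not tested.

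**Figure D1:**
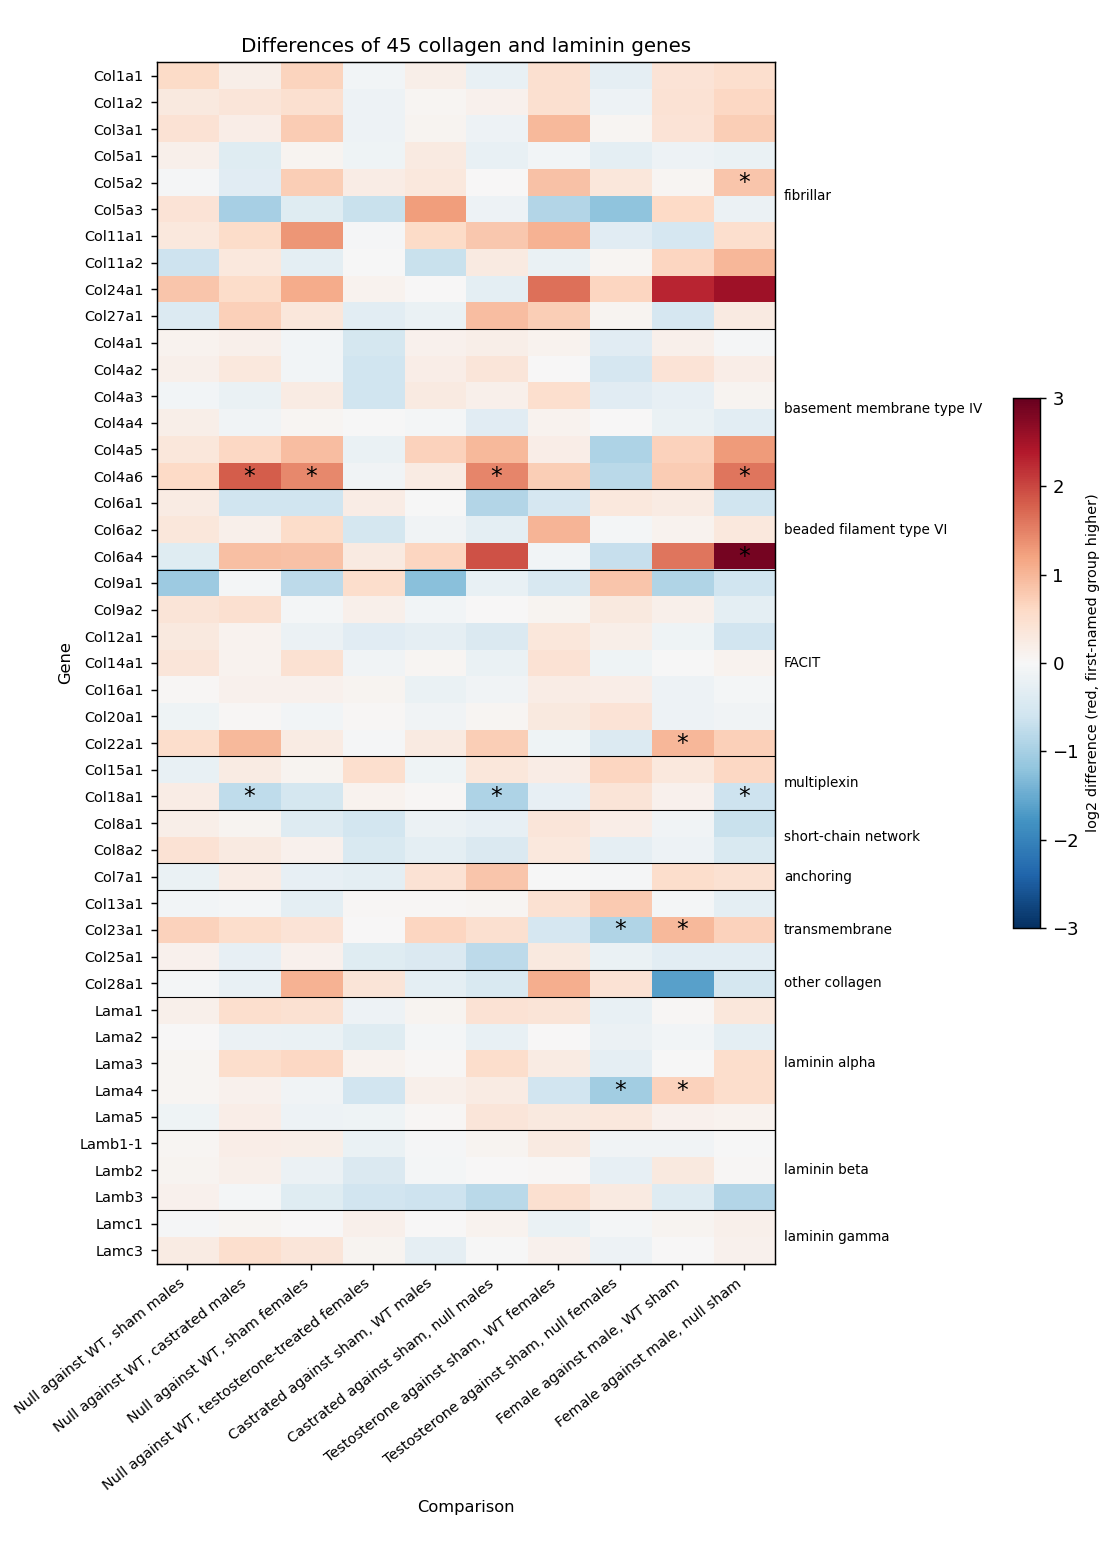
Colour map of the log2 difference of each of the 45 members (vertical axis, by structural class) in each comparison (horizontal axis), with marked cells where limma's adjusted p was under 0.05. Col4a6 and Col18a1 carry marks in more than 1 comparison that involves null castrated males or null sham females, while most members lie near 0 throughout.

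Of the laminins, the gamma chains Lamc1 (the common gamma chain of most laminins) and Lamc3, ranged from 2.55 to 3.54 and from 0.18 to 1.11 over the 24 arrays, and neither was called in any comparison. Lamc1 in males read 3.48, 3.32 and 2.88 in WT sham, 3.44, 3.23 and 3.06 in WT castrated, 3.08, 3.28 and 3.20 in null sham and 3.33, 3.34 and 3.20 in null castrated males, and in females 3.37, 3.45 and 3.14 in WT sham, 3.30, 3.54 and 2.55 in WT testosterone, 3.38, 3.43 and 3.19 in null sham and 3.44, 3.5 and 2.91 in null testosterone females. These groups overlapped throughout, and the null against WT difference of Lamc1 was 0.05 ± 0.22 in castrated males. Lamc3 differed by 0.50 ± 0.17 there (adjusted p = 0.33). Over the 4 pairs Lamc3 was 0.29 ± 0.09 higher in null glands (adjusted p = 0.0814), and with slide as a block 0.30 (adjusted p = 0.047), which was called.

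Lama4, the alpha 4 chain of laminins found in vessel walls, had its highest group means in sham females of both genotypes. Its probe lies at chr10:38825794-38825853 on the plus strand (mm9). Lama4 in males read 1.57, 1.68 and 1.10 in WT sham, 1.77, 1.48 and 1.57 in WT castrated, 1.30, 1.68 and 1.54 in null sham and 1.61, 2.02 and 1.59 in null castrated males. Lama4 in females read 2.04, 2.31 and 2.08 in WT sham, 1.46, 1.56 and 1.70 in WT testosterone, 1.87, 2.18 and 2.07 in null sham and 1.19, 1.07 and 0.71 in null testosterone females. In both genotypes every testosterone-treated female lay below every sham female. Lama4 fell by 1.05 ± 0.18 with testosterone in null females (2.07-fold, limma adjusted p = 0.013; -0.68, -1.10 and -1.37 within slides 1, 2 and 3). In WT females the difference was -0.57 ± 0.18 (adjusted p = 0.336), and the difference between the genotypes, -0.48 ± 0.25, was not called (adjusted p = 1). WT sham females exceeded WT sham males by 0.69 ± 0.18 (1.61-fold, adjusted p = 0.0443).

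The testosterone call of Lama4 in null females was lost without null sham female replicate 2, at -0.98 (adjusted p = 0.0748), and without null testosterone female replicate 3, at -0.91 (adjusted p = 0.09). Without the 9 arrays, none of which is in that comparison, it was -1.05 (adjusted p = 0.0865), in a fit with fewer samples. The sex difference in WT was lost on leaving out any of 18 of the 24 arrays (adjusted p 0.0513 to 0.186), and was 0.59 (adjusted p = 0.338) without the 9 arrays and 0.51 (adjusted p = 0.15) without the 2 arrays with liver transcripts. Without the filter on dim probes its adjusted p was 0.0783.

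The remaining alpha chains were not called in any comparison. Lama5, an alpha chain of epithelial and vascular basement membranes, read 2.15, 1.99 and 2.01 in WT sham, 2.11, 1.90 and 2.23 in WT castrated, 2.04, 2.04 and 1.66 in null sham and 2.23, 2.31 and 2.26 in null castrated males, and 2.31, 1.97 and 2.24 in WT sham, 2.39, 2.67 and 2.33 in WT testosterone, 2.25, 2.03 and 1.76 in null sham and 1.85, 2.72 and 2.46 in null testosterone females. No group of Lama5 lay wholly above or below all the others, though WT testosterone females lay above every group but null testosterone females. Lama1 ranged from 1.59 to 2.49, Lama2 from 1.23 to 2.38 and Lama3 from -2.07 to -0.83. Lama3, an alpha chain of epithelial basement membranes, differed null against WT by 0.53 ± 0.22 in castrated males (adjusted p = 0.501) and 0.62 ± 0.22 in sham females (adjusted p = 0.267). Its other passing probe, which followed the used one across arrays with r = 0.859, gave 0.74 and 1.05.

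The beta chains Lamb1 (Lamb1-1 in the files), Lamb2 and Lamb3 were not called either. Lamb1 in males read 4.79, 4.80 and 4.47 in WT sham, 4.81, 4.63 and 4.51 in WT castrated, 4.89, 4.67 and 4.69 in null sham and 4.84, 4.93 and 4.75 in null castrated males, and in females 4.59, 4.65 and 4.48 in WT sham, 4.90, 4.93 and 4.69 in WT testosterone, 4.81, 4.89 and 4.54 in null sham and 4.42, 4.88 and 4.65 in null testosterone females, a span of 0.51 over all 24 arrays. Lamb2 ranged from 1.43 to 2.70 and Lamb3 from -4.72 to -3.11. Lamb3, a beta chain of epithelial basement membranes, was -0.81 ± 0.31 different after castration of null males (adjusted p = 0.333) and -0.88 ± 0.31 between null sham females and males (adjusted p = 0.257).

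Type IV collagen has 6 chains encoded in head-to-head gene pairs, Col4a1 with Col4a2, Col4a3 with Col4a4 and Col4a5 with Col4a6. Col4a6 was the one type IV member called in any comparison. Because Col4a6 and its neighbour Col4a5 start close together on opposite strands, the 250 bases upstream of each start are shown to place both promoters side by side (RefSeq, GRCm38.p6). Col4a6 lies at chrX:141474077-141474326, minus strand, and Col4a5 at chrX:141475169-141475418, plus strand. The starts are 1343 bases apart. Sequences run 5′ to 3′ along each gene, and capitals mark GGGCGG (the Sp1-type GC box, on either strand) and CCAAT.
Col4a6: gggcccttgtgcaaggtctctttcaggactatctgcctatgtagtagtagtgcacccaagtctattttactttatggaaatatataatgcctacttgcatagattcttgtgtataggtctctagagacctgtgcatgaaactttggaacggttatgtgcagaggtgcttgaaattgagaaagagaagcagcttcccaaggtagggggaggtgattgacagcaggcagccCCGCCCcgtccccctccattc
Col4a5: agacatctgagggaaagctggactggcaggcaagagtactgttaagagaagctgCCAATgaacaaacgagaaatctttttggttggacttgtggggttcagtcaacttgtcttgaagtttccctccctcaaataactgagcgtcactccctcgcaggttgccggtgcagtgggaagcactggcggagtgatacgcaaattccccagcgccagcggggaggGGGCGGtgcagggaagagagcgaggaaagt

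The GC box nearest the start begins 21 bases before the Col4a6 start and 30 bases before the Col4a5 start, and Col4a5 has a CCAAT 196 bases before its start. The upstream table held 34 of the 45 members, with 38 windows in all; Lama4 is not among them. GGGCGG on either strand occurred in 22 of the 38 member windows (57.9%) and in 32.7% of all 32851 windows of the same length, and CCAAT in 13 of the 38 (34.2%) and in 33.8% of all. These are matches of letters, and no binding was measured.

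Col4a6 in males read -2.75, -2.74 and -2.33 in WT sham, -1.82, -2.59 and -2.63 in WT castrated, -1.87, -1.95 and -2.21 in null sham and -0.51, -0.20 and -0.89 in null castrated males. Col4a6 in females read -1.46, -2.04 and -2.06 in WT sham, -0.96, -1.06 and -1.32 in WT testosterone, 0.03, -0.08 and -1.18 in null sham and -1.20, -0.99 and -1.48 in null testosterone females. Null castrated males lay above every other male array, and null sham female replicates 1 and 2 were the highest of all 24 arrays, while replicate 3 of that group lay among the testosterone females.

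Null against WT, Col4a6 rose by 1.82 ± 0.29 in castrated males (3.52-fold, limma adjusted p = 0.00305) and by 1.44 ± 0.29 in sham females (2.71-fold, adjusted p = 0.0276). It also rose with castration in null males, by 1.47 ± 0.29 (2.78-fold, adjusted p = 0.0129), and was higher in null sham females than null sham males by 1.60 ± 0.29 (3.02-fold, adjusted p = 0.00977). The average over the 4 pairs was 0.94 ± 0.15 (adjusted p = 0.00174). Neither interaction was called for Col4a6, at 1.22 ± 0.41 for castration (adjusted p = 0.67) and -1.55 ± 0.41 for testosterone (adjusted p = 0.336).

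Col4a6 has a second passing probe, 1443 bases from the used one, and it did not show these differences. The used probe lies at chrX:137599990-137600049 and the other at chrX:137601433-137601491, both on the minus strand (mm9). The second probe read -2.78, -3.07 and -2.20 in WT sham, -2.95, -3.01 and -2.38 in WT castrated, -2.95, -2.97 and -2.34 in null sham and -3.09, -2.99 and -2.77 in null castrated males, and -2.93, -3.27 and -1.61 in WT sham, -3.02, -3.13 and -2.02 in WT testosterone, -2.85, -3.13 and -2.17 in null sham and -3.18, -3.14 and -2.28 in null testosterone females. Its difference was -0.17 in castrated males, -0.11 in sham females, -0.20 for castration in null males and 0.03 for null females against males, and it correlated with the used probe at r = -0.264 over 24 arrays. Which transcript each probe detects was not tested, and the Col4a6 calls hold for the used probe.

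Within slides 1, 2 and 3 the castrated male difference of Col4a6 was 1.31, 2.39 and 1.74, and within slides 1 and 2 the sham female difference was 1.48 and 1.96; slide 3 held no WT sham female. The values kept their direction without the 9 arrays and none was called: 1.46 (adjusted p = 0.649) in castrated males, 1.04 (adjusted p = 0.464) in sham females, 1.32 (adjusted p = 0.884) for castration in null males and 1.80 (adjusted p = 0.341) for null females against males. The castrated male call held on leaving out each array in turn. The sham female value was 1.34 (adjusted p = 0.104) without the fourth slide and 1.47 (adjusted p = 0.0527) with quantile normalisation, neither called. The sham female call was lost without null sham female replicate 1, at 1.22 (adjusted p = 0.154), or replicate 2, at 1.28 (adjusted p = 0.0952), and without WT sham female replicate 2, at 1.34 (adjusted p = 0.0847), or replicate 3, at 1.34 (adjusted p = 0.104). The castration call in null males was lost without null castrated male replicate 1, at 1.46 (adjusted p = 0.0536), or replicate 2, at 1.31 (adjusted p = 0.0737), and without null sham male replicate 3, at 1.37 (adjusted p = 0.0726). The null sex difference was lost without null sham female replicate 1, at 1.38 (adjusted p = 0.0648), or replicate 2, at 1.43 (adjusted p = 0.0507), and without null sham male replicate 3, at 1.49 (adjusted p = 0.0628).

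Col4a5 was not called in any comparison. Col4a5 in males read -1.04, -0.72 and -0.72 in WT sham, 0.14, -0.31 and -0.22 in WT castrated, -0.48, -0.52 and -0.47 in null sham and 0.88, 0.35 and 0.22 in null castrated males, and in females 0.27, -0.02 and -0.67 in WT sham, 0.55, 0.11 and -0.46 in WT testosterone, 1.30, 0.90 and 0.14 in null sham and 0.02, 0.13 and -0.55 in null testosterone females. The castrated arrays of either genotype lay above the sham arrays of the same genotype. The differences were 1.27 ± 0.31 for null females against males (adjusted p = 0.0541), 0.98 ± 0.31 for castration in null males (adjusted p = 0.171), 0.70 ± 0.31 in WT males, 0.92 ± 0.31 for null against WT sham females and -0.92 ± 0.31 for testosterone in null females (adjusted p = 0.41). With slide as a block 3 Col4a5 differences were called: 1.27 (adjusted p = 0.00618) for null females against males, 0.98 (adjusted p = 0.025) for castration in null males and 0.84 (adjusted p = 0.0449) for WT females against males.

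Col4a1, which with Col4a2 makes the common type IV network, read 3.49, 3.51 and 3.11 in WT sham, 3.56, 3.51 and 3.42 in WT castrated, 3.46, 3.52 and 3.46 in null sham and 3.79, 3.61 and 3.57 in null castrated males. Col4a1 in females read 3.25, 3.59 and 3.71 in WT sham, 3.61, 3.84 and 3.39 in WT testosterone, 3.48, 3.57 and 3.27 in null sham and 3.20, 3.31 and 2.76 in null testosterone females. The male arrays lay between 3.11 and 3.79, and null testosterone females held the lowest female mean, at 3.09 ± 0.29 (SD, n = 3). Null against WT with testosterone, Col4a1 differed by -0.52 ± 0.17 (adjusted p = 0.292) and Col4a2 by -0.60 ± 0.18 (adjusted p = 0.284). Col4a2 ranged from 2.66 to 3.91, Col4a3 from -4.36 to -2.88 and Col4a4 from -0.84 to -0.09 over the arrays, with no call. The genotype by testosterone term was below 0 for the used probes of all 6 type IV chains, with a median of -0.68. The other passing Col4a4 probes went the other way. Null against WT, they gave 0.36 and -0.49 in sham females and 0.47 and -0.23 in testosterone-treated females. They correlated with the used Col4a4 probe at r = -0.206 and -0.362. The second Col4a6 probe gave -0.11 in sham and -0.14 in testosterone-treated females.

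Correlations within groups asked whether chains of 1 trimer varied together beyond the groups. For each of 8 chain pairs the deviations from the group means were correlated, and p-values came from 100000 permutations within groups, two-sided and adjusted over the 8 pairs. Col4a1 and Col4a2 had r = 0.864 over 24 arrays (permutation p = 6.00e-05, adjusted 0.00048) and rho = 0.833 (adjusted p = 0.0028), and r = 0.817 without the 2 arrays farthest from the median. Within slides 1, 2 and 3 their r was 0.943, 0.405 and 0.772. Col4a5 and Col4a6 had r = 0.745 (permutation p = 0.00121, adjusted 0.00484) and rho = 0.752 (adjusted p = 0.00536), with r = 0.667 without the farthest 2 arrays and 0.609, 0.205 and 0.860 within slides. Both pairs had their lowest r within slide 2. Col1a1 and Col1a2 had r = 0.549 (adjusted permutation p = 0.046) and rho = 0.624 (adjusted p = 0.0217), and Lamb1 and Lamc1 r = 0.579 (adjusted permutation p = 0.046) and rho = 0.621 (adjusted p = 0.0217), the latter with r of -0.10, 0.37 and 0.06 within slides. Col8a1 and Col8a2 had r = 0.573 (adjusted permutation p = 0.046) and rho = 0.550 (adjusted p = 0.0524). The other 3 pairs did not pass: Col4a3 and Col4a4 had r = 0.439 (adjusted permutation p = 0.114) and rho = 0.345 (adjusted p = 0.223), Col5a1 and Col5a2 r = -0.358 (adjusted permutation p = 0.114) and rho = -0.350 (adjusted p = 0.194), and Col6a1 and Col6a2 r = 0.163 (adjusted permutation p = 0.593) and rho = 0.00435 (adjusted p = 0.988). Arrays share RNA quality and slide, whose part in these correlations was not tested.

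**Figure D2:**
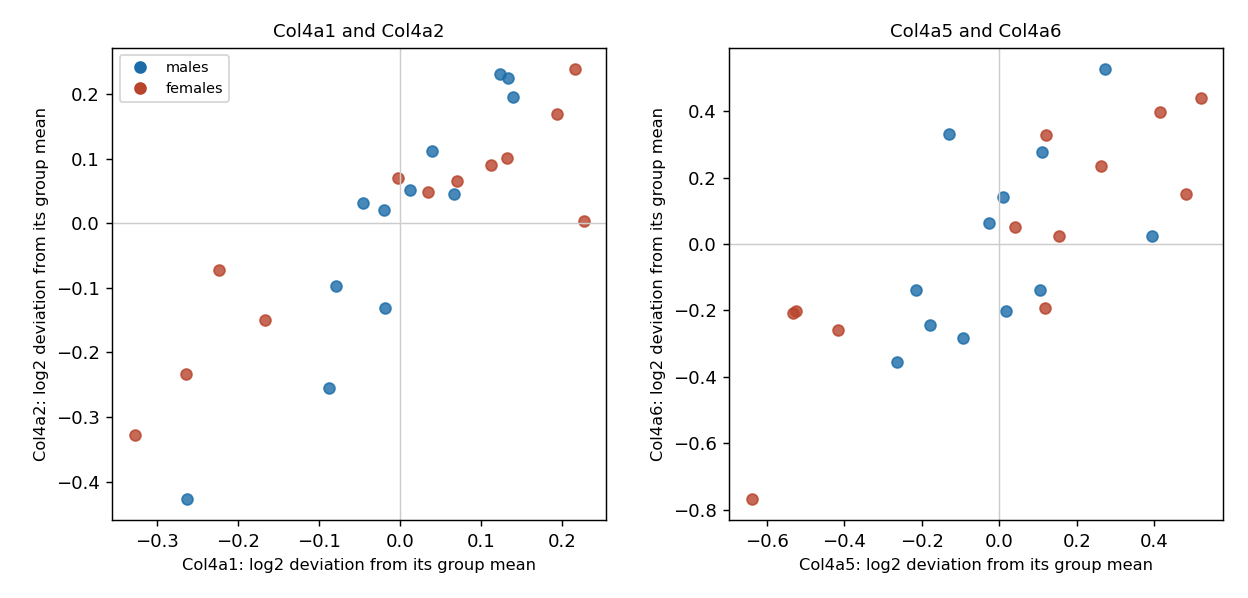
Deviation of one chain from its group mean (log2, horizontal axis) against that of its partner (log2, vertical axis) on 24 arrays for the type IV pairs Col4a1 with Col4a2 and Col4a5 with Col4a6; each point is an array, blue for males and red for females. In both pairs the deviations rise together, with r = 0.864 and 0.745.

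Col18a1, the basement membrane collagen whose end fragment is endostatin, was the member called lower in null castrated males, where Col4a6 was called higher. Its probe lies at chr10:76514926-76514985 on the minus strand (mm9). Col18a1 in males read 2.98, 3.03 and 3.16 in WT sham, 3.18, 3.02 and 3.11 in WT castrated, 3.35, 3.15 and 3.34 in null sham and 2.22, 2.38 and 2.43 in null castrated males. Col18a1 in females read 3.19, 3.12 and 3.24 in WT sham, 3.11, 2.90 and 2.84 in WT testosterone, 2.62, 2.50 and 2.83 in null sham and 3.36, 3.06 and 2.72 in null testosterone females. Null castrated males were the 3 lowest arrays of all 24, and null sham females lay below WT sham females. Null against WT, Col18a1 fell by 0.76 ± 0.15 in castrated males (1.69-fold, limma adjusted p = 0.0124). Castration of null males lowered it, a difference of -0.94 ± 0.15 (1.92-fold, adjusted p = 0.00199), and null sham females were lower than null sham males by a difference of -0.63 ± 0.15 (1.55-fold, adjusted p = 0.0446). In sham females, null against WT, the difference was -0.53 ± 0.15 (adjusted p = 0.121), not called.

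A second Col18a1 probe followed the used one at r = 0.940 and gave -0.92 in castrated males, -1.02 for castration in null males and -0.68 in sham females. Within slides 1, 2 and 3 the castrated male difference was -0.96, -0.64 and -0.68 and the castration difference in null males -1.13, -0.76 and -0.92. The values without the 9 arrays were -0.67 (adjusted p = 0.824), -0.92 (adjusted p = 0.605) and, between null females and males, -0.69 (adjusted p = 0.557). The castrated male call was lost without WT castrated male replicate 1, at -0.72 (adjusted p = 0.0771), or replicate 3, at -0.75 (adjusted p = 0.058), and without null castrated male replicate 1, at -0.70 (adjusted p = 0.0778). The deposited value table gave -0.73 (adjusted p = 0.0576) in castrated males, not called. The sex difference in null mice was not called with quantile normalisation, -0.60 (adjusted p = 0.0955), or in the deposited value table, -0.63 (adjusted p = 0.1). It was lost on leaving out any of 17 arrays (adjusted p 0.0514 to 0.197), and the castration call held on leaving out each array in turn.

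**Figure D3:**
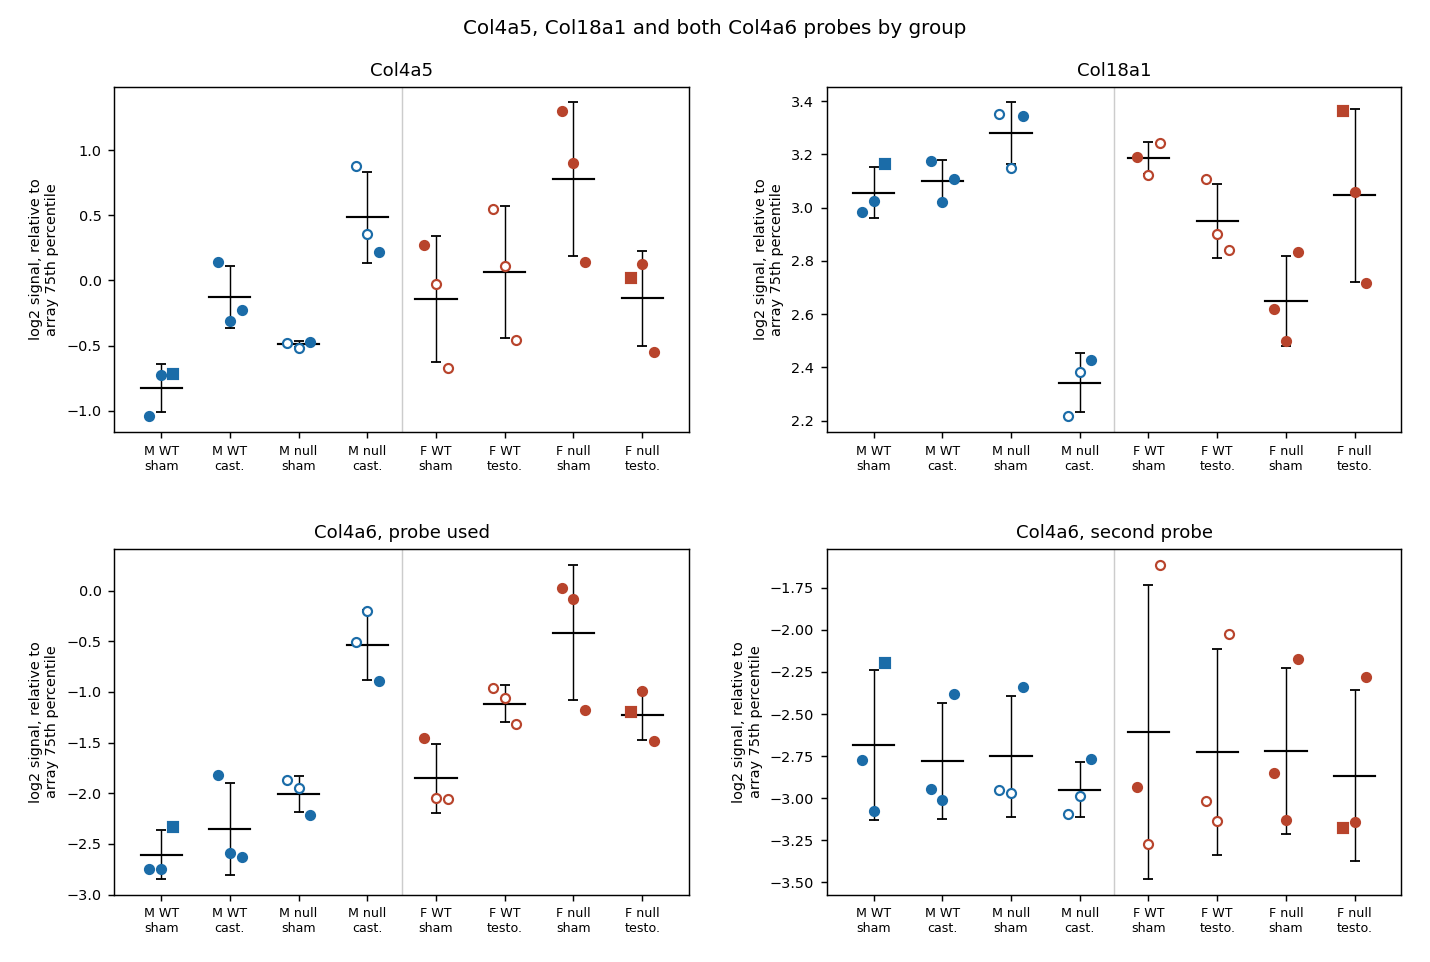
Level of Col4a5, Col18a1 and both Col4a6 probes on each array (log2, relative to the array's 75th percentile; vertical axis) in the 8 groups (horizontal axis), with the group mean as a line and the SD as a bar (n = 3). Open symbols are the 9 arrays with opposite sex-linked signal and squares the 2 with liver transcripts. The used Col4a6 probe has its highest group means, and Col18a1 its lowest, in null castrated males and null sham females, which the second Col4a6 probe does not show.

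Col15a1, the other multiplexin, ranged from -4.15 to -0.62 and was not called. Its 2 other passing probes correlated with the used one at only r = 0.461 and 0.387. The used Col15a1 probe carries the letters GGN, the glycine codons, at the fixed spacing of the triple helix, and is shown with the other 2 collagen probes of the same kind. The Col25a1 and Col16a1 probes shown are not those used for these genes. Positions are chr4:47283786-47283845, plus strand, for Col15a1, chr3:130270497-130270556, plus strand, for Col25a1 and chr4:129756457-129756516, plus strand, for Col16a1 (mm9). Capitals mark GGN in a row of 5 or more with 9 bases from each to the next.
Col15a1: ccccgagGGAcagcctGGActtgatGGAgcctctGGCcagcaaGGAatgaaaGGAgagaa
Col25a1: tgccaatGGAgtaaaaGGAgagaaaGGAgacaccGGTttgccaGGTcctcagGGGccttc
Col16a1: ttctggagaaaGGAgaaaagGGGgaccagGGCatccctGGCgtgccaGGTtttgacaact

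Such a row occurred in 3 of the 61 collagen probes (4.92%) and in 20 of all 55681 probes (0.0359%). The shown Col25a1 and Col16a1 probes correlated with the used probes of their genes at r = 0.152 and 0.225. Whether these probes also bind other collagens was not tested.

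The 10 fibrillar collagens are the fibre-forming chains of types I, III, V, XI, XXIV and XXVII. Of these, Col5a2 alone was called, in null sham females against null sham males. The class median was 0.57 for null against WT sham females, 0.61 for testosterone in WT females, 0.42 and 0.57 for female against male in WT and null, and -0.64 for the genotype by testosterone term. The medians over all features in the same comparisons lay between -0.02 and 0.02. The summed level of 7 capsule and stroma markers, in units of the array's 75th percentile signal, was 74.3 to 87.8 in WT sham, 89.0 to 105 in null sham and 88.6 to 106.7 in WT testosterone females, and 62.6 to 80.4 in WT sham males. Their part in the fibrillar values was not tested.

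Col5a2, a type V chain that sets fibril width, has its probe at chr1:45431204-45431263 on the minus strand (mm9). Col5a2 in males read -3.55, -3.39 and -3.83 in WT sham, -3.09, -3.48 and -3.24 in WT castrated, -3.83, -3.75 and -3.27 in null sham and -3.89, -3.56 and -3.34 in null castrated males. Col5a2 in females read -3.56, -3.70 and -3.30 in WT sham, -2.69, -2.62 and -2.64 in WT testosterone, -2.65, -2.85 and -2.85 in null sham and -2.59, -2.62 and -2.11 in null testosterone females. WT sham females lay among the males, and every array of the other 3 female groups lay above every male array. Null sham females exceeded null sham males by 0.83 ± 0.19 (1.78-fold, limma adjusted p = 0.0388). Null against WT sham females differed by 0.74 ± 0.19 (adjusted p = 0.0888) and testosterone against sham WT females by 0.87 ± 0.19 (adjusted p = 0.0936), neither called. With slide as a block the testosterone difference in WT was 0.87 (adjusted p = 0.0429), which was called. It was also called with normexp and in the deposited value table, as was null against WT sham females. The sex difference in null mice was not called with normexp, 0.40 (adjusted p = 0.138), with quantile normalisation, 0.69 (adjusted p = 0.0932), or in the deposited value table, 0.57 (adjusted p = 0.0709). The sex call was lost on leaving out any of 9 arrays (adjusted p 0.0506 to 0.217) and was 0.49 (adjusted p = 0.81) without the 9 arrays of opposite sex-linked signal.

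Col1a2, which with Col1a1 makes type I collagen, read 4.88, 4.91 and 4.31 in WT sham, 4.92, 4.79 and 4.57 in WT castrated, 4.81, 5.19 and 4.96 in null sham and 5.09, 5.41 and 4.84 in null castrated males. Col1a2 in females read 5.20, 5.22 and 4.98 in WT sham, 5.69, 5.52 and 5.60 in WT testosterone, 5.58, 5.52 and 5.75 in null sham and 5.60, 5.48 and 5.31 in null testosterone females. The other female groups lay above WT sham females, and null castrated male replicate 2, at 5.41, was the male array that reached them. No Col1a2 difference was called; null females against null males differed by 0.63 ± 0.17 (adjusted p = 0.107), and with slide as a block by 0.63 (adjusted p = 0.0418), which was called. Col1a1 ranged from 2.83 to 4.48 over 23 arrays, its spot on null testosterone female replicate 2 being an outlier that was left out. Col3a1, the type III chain, ranged from 2.86 to 4.89 and differed by 0.96 ± 0.24 for testosterone in WT females (adjusted p = 0.16).

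Col5a3, a type V chain, had its largest differences among castrated and testosterone-treated groups. Col5a3 in males read 4.03, 3.88 and 3.99 in WT sham, 5.33, 5.27 and 5.10 in WT castrated, 4.54, 4.61 and 4.01 in null sham and 4.99, 4.02 and 3.68 in null castrated males. Col5a3 in females read 4.05, 4.93 and 4.72 in WT sham, 4.77, 3.58 and 2.71 in WT testosterone, 4.04, 4.08 and 4.52 in null sham and 3.14, 2.99 and 2.90 in null testosterone females. WT castrated males lay above the other 3 male groups, and null testosterone females lay below null sham females. The castration difference in WT males was 1.26 ± 0.39 (limma adjusted p = 0.24; 1.30, 1.38 and 1.11 within slides 1, 2 and 3), the castrated null against WT difference -1.0 ± 0.39 (adjusted p = 0.433) and the testosterone difference in null females -1.20 ± 0.39 (adjusted p = 0.382). None was called with all arrays. Without the 9 arrays the castration difference in WT males was 1.26 (adjusted p = 0.00588), which was called. The testosterone difference in null females was then -1.20 (adjusted p = 0.0207), also called. The castrated null against WT difference was -1.55, with 1 null castrated array left.

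Col24a1, a fibrillar chain of developing bone, was well above background on no male array and on 9 of 12 female arrays. Col24a1 in males read -7.40, -7.35 and -8.14 in WT sham, -7.24, -7.58 and -8.06 in WT castrated, -5.95, -6.28 and -8.13 in null sham and -7.49, -5.97 and -7.76 in null castrated males. Col24a1 in females read -3.15, -5.29 and -7.60 in WT sham, -3.53, -3.42 and -4.10 in WT testosterone, -3.96, -3.94 and -4.82 in null sham and -3.08, -3.37 and -4.30 in null testosterone females. Its lowest female arrays were WT sham replicates 2 and 3, both with opposite sex-linked signal. All WT testosterone females carried such signal too, and they read -4.10 to -3.42. Col24a1 passed the filter on dim probes through female arrays alone. Where a group had no array above background, the fold is set against the lowest signal well above background on its arrays. The probe's own signal was used where higher. Such a fold is a lower bound only where every array of the brighter group was above background. Since passing through female arrays favours a difference between the sexes, the values are a description with no test. Null sham females were 2.85-fold and WT sham females 1.11-fold above the sham males of their genotype. Neither is a lower bound, with 2 of 3 null and 1 of 3 WT sham female arrays above background. Testosterone against sham in WT females gave 1.66 ± 0.79 (adjusted p = 0.762), and null against WT sham females 1.11 ± 0.79 (adjusted p = 0.729).

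The other fibrillar members, Col5a1, Col11a1, Col11a2 and Col27a1, ranged from 1.11 to 2.53, -5.80 to -3.31, -5.96 to -2.62 and -2.79 to -0.84 and were not called. Col11a1, the type XI chain of cartilage fibrils, differed by 1.34 ± 0.48 between null and WT sham females (adjusted p = 0.28), by 1.04 ± 0.48 with testosterone in WT females (adjusted p = 0.738) and by 0.55 ± 0.24 between null and WT over the 4 pairs (adjusted p = 0.279).

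**Figure D4:**
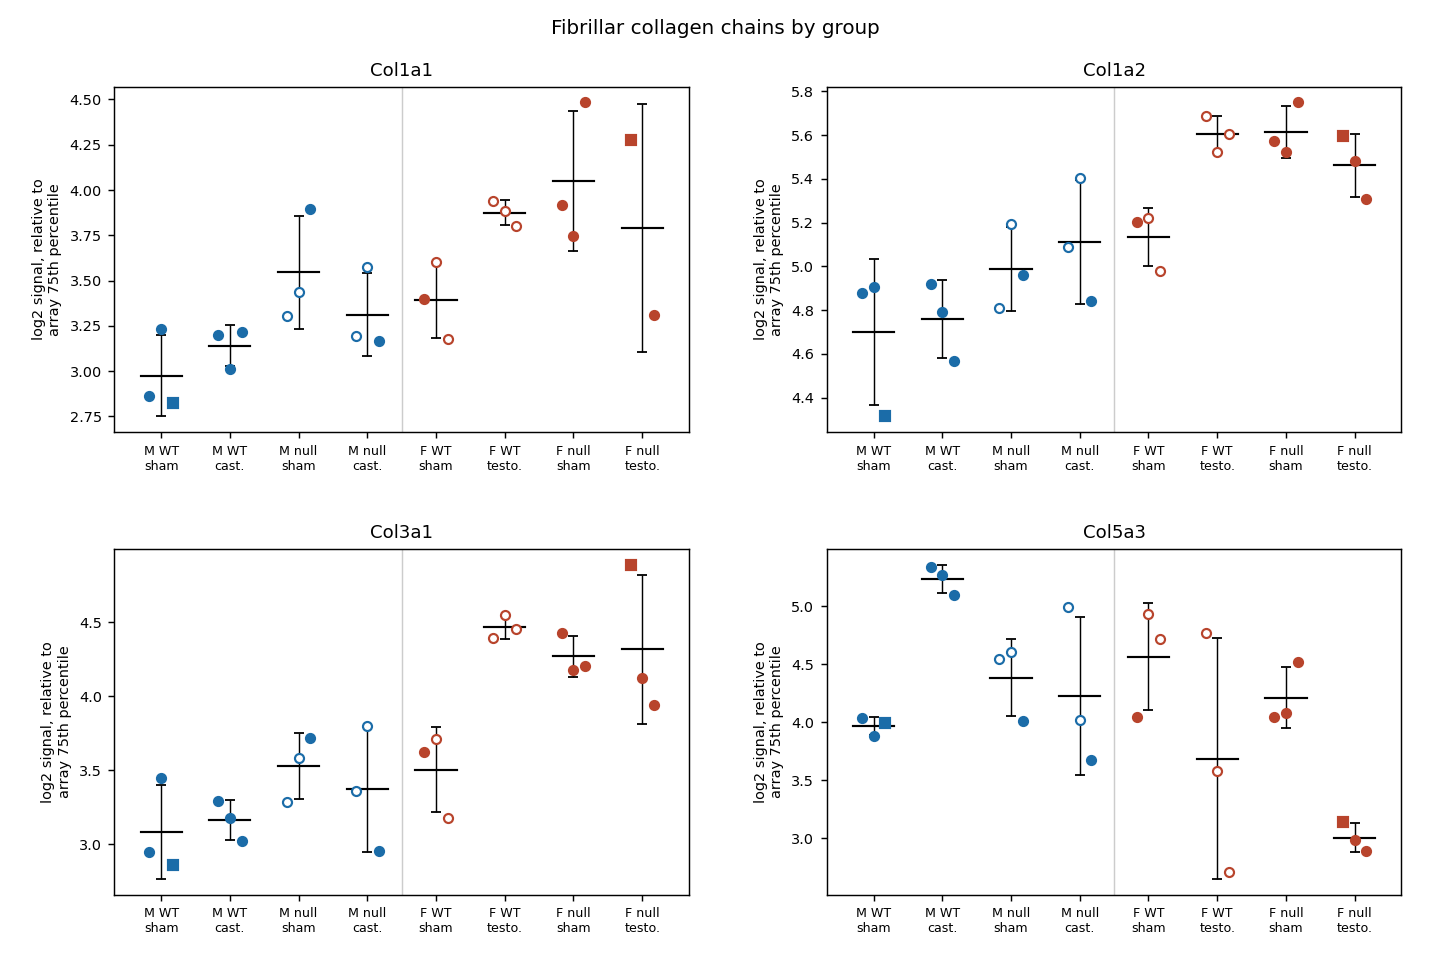
Level of Col1a1, Col1a2, Col3a1 and Col5a3 on each array (log2, relative to the array's 75th percentile; vertical axis) by group (horizontal axis), with mean (line) and SD (bar), n = 3 unless an outlier spot was left out; open symbols are the 9 arrays with opposite sex-linked signal and squares the 2 with liver transcripts. Col1a2 is higher in null sham and in both testosterone-treated female groups than in WT sham females, and Col5a3 is higher in WT castrated males than in the other male groups.

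Type VI collagen forms beaded filaments next to basement membranes. Col6a1 in males read 5.44, 5.33 and 4.98 in WT sham, 5.20, 5.43 and 5.06 in WT castrated, 5.59, 5.57 and 5.35 in null sham and 4.75, 5.01 and 4.12 in null castrated males. Col6a1 in females read 5.36, 5.65 and 5.50 in WT sham, 5.20, 5.16 and 4.62 in WT testosterone, 5.06, 5.19 and 4.47 in null sham and 5.07, 5.46 and 5.11 in null testosterone females. Null castrated male replicate 3 and null sham female replicate 3 were the 2 lowest, and the castration difference in null males, -0.88 ± 0.23, was not called (limma adjusted p = 0.0798). With slide as a block it was -0.88 (adjusted p = 0.00601). Col6a2 ranged from -0.65 to 1.24 and differed by 1.02 ± 0.24 with testosterone in WT females (adjusted p = 0.131) but by -0.06 ± 0.24 in null females.

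Col6a4, a further type VI chain, was dim, well above background on 8 of 24 arrays. Col6a4 in males read -7.55, -7.45 and -7.04 in WT sham, -4.93, -7.68 and -7.51 in WT castrated, -7.85, -7.27 and -7.98 in null sham and -5.31, -4.84 and -7.23 in null castrated males. Col6a4 in females read -6.48, -5.27 and -5.43 in WT sham, -5.73, -5.32 and -6.35 in WT testosterone, -4.23, -5.07 and -5.21 in null sham and -4.51, -5.74 and -6.32 in null testosterone females. None of the 6 sham males was above background, and 2 of the 3 null sham females were. By the same measure as for Col24a1, null sham females exceeded null sham males 1.88-fold. This is not a lower bound, since not all null sham females were above background. The difference was 2.86 ± 0.67 (limma adjusted p = 0.0462) and was called, with the probe at chr9:105893016-105893075 on the minus strand (mm9). This call was lost on leaving out any of 16 arrays (adjusted p 0.0513 to 0.184), was 3.15 (adjusted p = 0.468) without the 9 arrays and 2.86 (adjusted p = 0.0525) without the fourth slide. The difference was 0.37 (adjusted p = 0.373) with normexp and quantiles, 0.57 (adjusted p = 0.273) in the deposited value table and 2.54 (adjusted p = 0.159) with quantile normalisation, none called. WT females against males differed by 1.62 ± 0.67 (adjusted p = 0.268) and castrated against sham null males by 1.91 ± 0.67 (adjusted p = 0.25).

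Col22a1, a FACIT of tissue junctions, was called between WT sham females and males. Its probe lies at chr15:71628906-71628965 on the minus strand (mm9). Col22a1 in males read -1.96, -2.01 and -2.25 in WT sham, -1.60, -1.90 and -1.88 in WT castrated, -1.42, -1.62 and -1.62 in null sham and -0.89, -0.75 and -0.79 in null castrated males. Col22a1 in females read -0.70, -1.50 and -1.04 in WT sham, -1.06, -1.22 and -1.33 in WT testosterone, -0.85, -0.51 and -1.16 in null sham and -1.84, -1.05 and -0.85 in null testosterone females. All WT sham males lay below all WT sham females, and null castrated males lay above the other males. WT sham females exceeded WT sham males by 0.99 ± 0.23 (1.99-fold, limma adjusted p = 0.0255; 1.37 (adjusted p = 0.0927) without the 9 arrays). The castrated null against WT difference was 0.98 ± 0.23 (adjusted p = 0.0552), not called.

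The Col22a1 sex call was lost without WT sham male replicate 1, at 1.05 (adjusted p = 0.0649), 2, at 1.02 (adjusted p = 0.0746), or 3, at 0.90 (adjusted p = 0.094). It was also lost without WT sham female replicate 1, at 0.80 (adjusted p = 0.141), or 3, at 0.97 (adjusted p = 0.0576). It was 0.74 (adjusted p = 0.0534) with normexp and quantiles and 0.76 (adjusted p = 0.0616) in the deposited value table, neither called.

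Among the other FACITs, which bind the surface of fibrils, Col16a1 read 2.91, 2.80 and 2.74 in WT sham, 2.65, 2.54 and 2.66 in WT castrated, 2.76, 2.99 and 2.81 in null sham and 2.80, 2.94 and 2.53 in null castrated males. Col16a1 in females read 2.75, 2.56 and 2.67 in WT sham, 3.08, 3.15 and 2.45 in WT testosterone, 3.05, 2.90 and 2.39 in null sham and 2.64, 3.13 and 3.18 in null testosterone females. No group of Col16a1 lay wholly above or below the others, with a span of 0.78 over the arrays. Col9a1 was dim, above background on 9 arrays, and ranged from -6.86 to -3.84; its difference was -1.09 ± 0.70 between null and WT sham males (adjusted p = 0.999) and -1.25 ± 0.70 for castration in WT males (adjusted p = 0.87), and its genotype by testosterone term 1.30 ± 0.99 (adjusted p = 1). Col9a1 in WT females against males was -0.91 ± 0.70 (adjusted p = 0.663), but -1.52 (adjusted p = 0.0395) with slide as a block, which was called. Col9a2, Col12a1, Col14a1 and Col20a1 ranged from -2.20 to -0.65, -1.55 to -0.34, 0.17 to 1.25 and -2.46 to -1.16 with no call.

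Col23a1, a transmembrane collagen, differed by sex in WT and by testosterone in null females. Its probe lies at chr11:51396885-51396944 on the plus strand (mm9). Col23a1 in males read -3.15, -2.92 and -3.50 in WT sham, -2.60, -2.41 and -2.64 in WT castrated, -2.66, -2.56 and -2.28 in null sham and -2.13, -1.71 and -2.21 in null castrated males. Col23a1 in females read -2.13, -2.25 and -2.27 in WT sham, -2.59, -2.72 and -2.89 in WT testosterone, -2.0, -1.57 and -1.85 in null sham and -2.60, -2.49 and -3.06 in null testosterone females. All WT sham males lay below all WT sham females, and null testosterone females lay below null sham females.

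WT sham females exceeded WT sham males by 0.97 ± 0.19 (1.96-fold, limma adjusted p = 0.00657; 1.06 (adjusted p = 0.0973) without the 9 arrays). In null females Col23a1 fell by 0.91 ± 0.19 with testosterone (1.88-fold, adjusted p = 0.0437; -0.60, -0.92 and -1.21 within slides 1, 2 and 3), and in WT females the difference was -0.51 ± 0.19 (adjusted p = 0.498). Averaged over the 4 pairs, null exceeded WT by 0.41 ± 0.09 (adjusted p = 0.0214; 0.39 (adjusted p = 0.0561) without the fourth slide). The other Col23a1 probe followed at r = 0.840 and gave 1.15 and -1.11 for the WT sex difference and the null testosterone difference. The testosterone call was lost on leaving out any of 18 arrays (adjusted p 0.0505 to 0.216) and without the 2 liver arrays, at -0.97 (adjusted p = 0.0541); the WT sex call and the average held on leaving out each array in turn. With normexp and quantiles none of these 3 differences was called, at 0.59 (adjusted p = 0.0803), -0.64 (adjusted p = 0.168) and 0.29 (adjusted p = 0.0707). Null females against males differed by 0.69 ± 0.19 (adjusted p = 0.093), and with slide as a block by 0.69 (adjusted p = 0.0371), which was called.

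**Figure D5:**
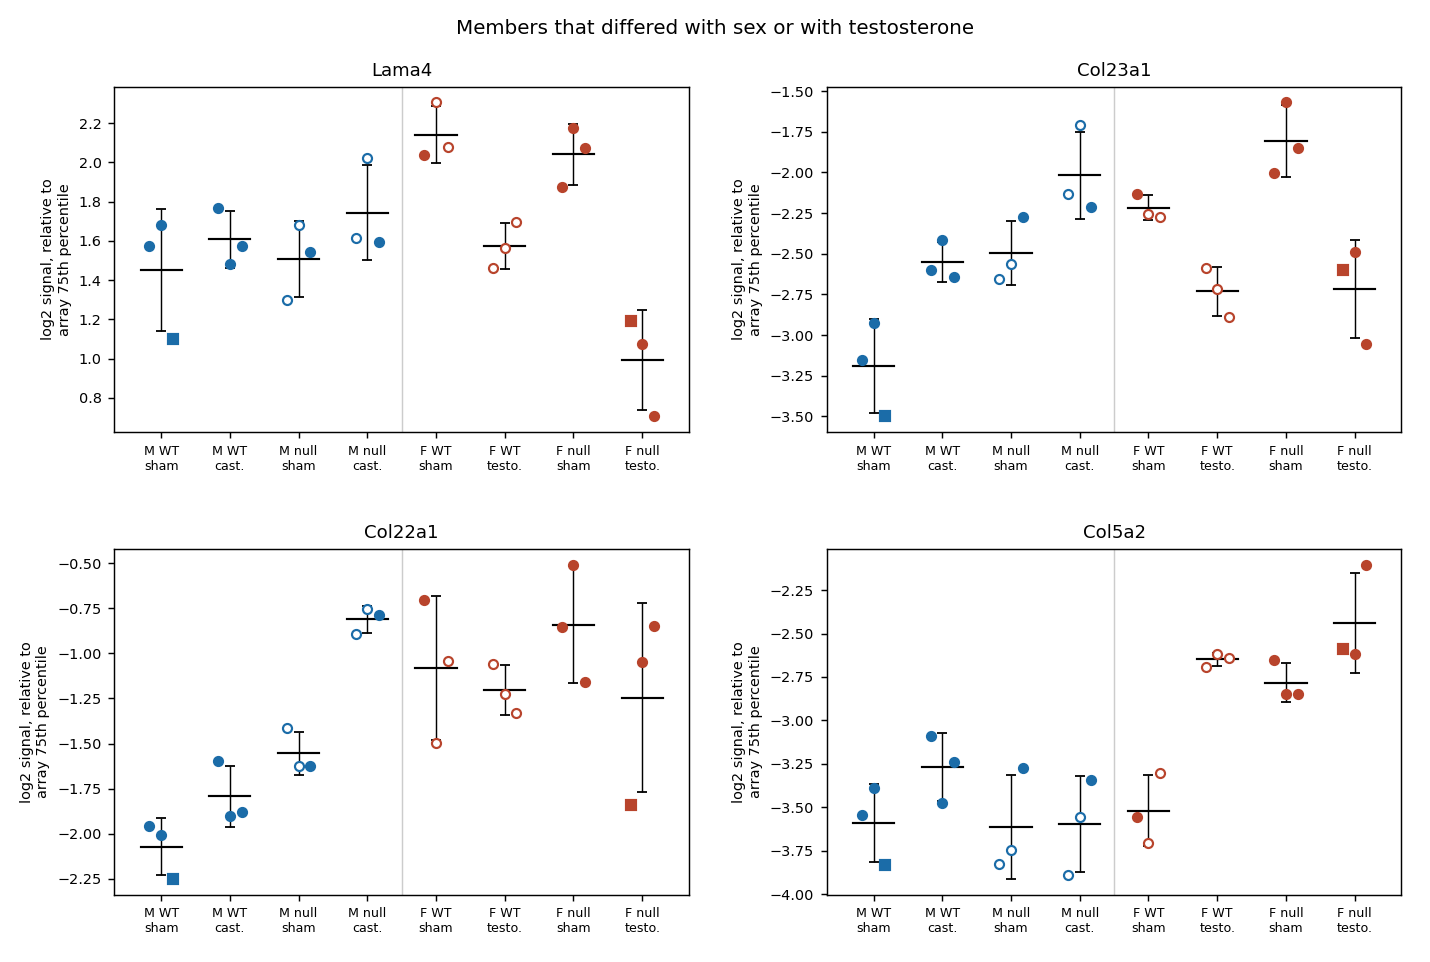
Levels of Lama4, Col23a1, Col22a1 and Col5a2 on each array (log2, relative to the array's 75th percentile; vertical axis) by group (horizontal axis), with mean (line) and SD (bar), n = 3; open symbols are the 9 arrays with opposite sex-linked signal and squares the 2 with liver transcripts. Lama4 and Col23a1 are lower in testosterone-treated than in sham females of the same genotype.

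The other transmembrane members, Col13a1 and Col25a1, ranged from -6.98 to -1.36 and -3.44 to -1.64 and were not called. Of the short-chain network collagens, which line endothelia, Col8a2 read -1.22, -0.95 and -0.98 in WT sham, -1.17, -1.51 and -1.33 in WT castrated, -0.60, -0.72 and -0.56 in null sham and -1.15, -0.83 and -1.19 in null castrated males, and -1.33, -1.24 and -1.03 in WT sham, -0.92, -0.90 and -0.83 in WT testosterone, -0.96, -0.87 and -1.40 in null sham and -1.41, -1.25 and -1.38 in null testosterone females. Null sham males were the highest male group; none of the Col8a2 differences was called, nor any of Col8a1, which ranged from -4.93 to -3.42. Col7a1, the anchoring fibril collagen of epithelia, read -0.74, -1.13 and -0.06 in WT sham, -0.39, -0.54 and 0.27 in WT castrated, -0.41, -0.84 and -1.24 in null sham and -0.45, 0.08 and 0.38 in null castrated males, and 0.49, -0.62 and -0.22 in WT sham, -0.17, 0.23 and -0.41 in WT testosterone, -0.39, -0.47 and -0.24 in null sham and -1.28, -0.50 and 0.57 in null testosterone females, with wide overlap. Col28a1, a collagen of peripheral nerve, read -4.31, -3.69 and -4.20 in WT sham, -4.39, -4.24 and -4.47 in WT castrated, -4.49, -4.80 and -3.09 in null sham and -4.47, -4.65 and -4.66 in null castrated males. Col28a1 in females read -5.55, -5.12 and -6.42 in WT sham, -4.45, -4.01 and -5.34 in WT testosterone, -4.10, -4.52 and -5.32 in null sham and -3.07, -5.17 and -4.41 in null testosterone females. The WT sham females had the lowest mean, and their differences, -1.64 ± 0.51 from WT sham males (limma adjusted p = 0.106) and 1.10 ± 0.51 for testosterone (adjusted p = 0.727), were not called.

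Of 24 measured genes of collagen modification, folding and crosslinking, 1 was called in both null against WT comparisons in which members were called, and it was the prolyl 3-hydroxylase Leprel1 (now P3h2), which modifies collagen IV among others. Leprel1 in males read -4.14, -3.42 and -3.86 in WT sham, -4.09, -3.12 and -3.39 in WT castrated, -3.23, -3.48 and -3.38 in null sham and -0.12, -0.93 and -0.74 in null castrated males. Leprel1 in females read -2.69, -3.15 and -3.18 in WT sham, -1.46, -2.76 and -1.96 in WT testosterone, -0.59, -1.22 and -1.66 in null sham and -3.96, -3.19 and -3.55 in null testosterone females. Null castrated males and null sham females had the highest means, and null testosterone females lay among the low groups. Leprel1 was 2.94 ± 0.34 (adjusted p = 0.0002) higher in null than WT castrated males and 1.85 ± 0.34 (adjusted p = 0.0141) higher in null than WT sham females. It rose by 2.77 ± 0.34 (adjusted p = 0.000266) with castration in null males, its testosterone difference in null females was -2.41 ± 0.34 (adjusted p = 0.00401), and its genotype by testosterone term was -3.36 ± 0.49 (adjusted p = 0.0043). The sham female call was lost without null sham female replicate 1 and without WT sham female replicate 2 or 3 (adjusted p 0.104, 0.0535 and 0.0651). The values of Leprel1 without the 9 arrays were 2.79 (adjusted p = 0.108) in castrated males, 1.54 (adjusted p = 0.282) in sham females and -2.41 (adjusted p = 0.0304) for testosterone in null females. Glt25d1 (now Colgalt1), a collagen galactosyltransferase, was 0.61 ± 0.12 (adjusted p = 0.0108) higher in WT sham females than males, and 0.67 (adjusted p = 0.12) without the 9 arrays. The list's median was 0.06 in castrated males and -0.07 in sham females.

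Of 15 basement membrane partners and receptors, Ddr1, a receptor tyrosine kinase for collagen, was called: it was 1.02 ± 0.20 (adjusted p = 0.0181) higher in null castrated males and 1.07 ± 0.20 (adjusted p = 0.0186) higher in null sham females than in WT. The list's median was 0.30 and 0.14 there. Of 17 matrix proteases and inhibitors, the inhibitor Timp3 was 0.77 ± 0.16 (adjusted p = 0.0179) higher in null castrated males and 0.82 ± 0.16 (adjusted p = 0.0119) higher in null sham females than null sham males, and its testosterone difference in null females was -0.82 ± 0.16 (adjusted p = 0.0282). With castration in null males Timp3 rose by 0.81 ± 0.16 (limma adjusted p = 0.011). That call was lost on leaving out any of 3 arrays (adjusted p 0.0514 to 0.0766), and the difference was 0.82 without the 9 arrays. In WT sham females against males, Mmp23 was 0.85 ± 0.17 (adjusted p = 0.0109) higher and Mmp11 differed by -0.99 ± 0.24 (adjusted p = 0.0356). Leaving out 1 array ended the Ddr1 call in castrated males for any of 5 arrays (adjusted p 0.0535 to 0.1) and in sham females for any of 3 arrays (adjusted p 0.0553 to 0.107). It ended the Timp3 call in castrated males for any of 6 arrays (adjusted p 0.0506 to 0.111), between null females and males for any of 3 arrays (adjusted p 0.0648 to 0.0859) and for testosterone in null females for any of 5 arrays (adjusted p 0.0786 to 0.165), and the Mmp11 call for any of 4 arrays (adjusted p 0.0618 to 0.19). Without the 9 arrays none of the Ddr1 and Timp3 pair differences was called: Ddr1 gave 0.89 (adjusted p = 0.515) in castrated males and 0.87 (adjusted p = 0.259) in sham females, and Timp3 gave 0.75 (adjusted p = 0.603) in castrated males, 0.86 (adjusted p = 0.376) between null females and males and -0.82 (adjusted p = 0.124) for testosterone in null females. Mmp23 was then 0.86 (adjusted p = 0.0751), not called, and Mmp11 -1.53 (adjusted p = 0.0402). The protease list's median was 0.24 in castrated males and 0.15 in sham females.

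Of 18 fibrogenic signalling genes, Wisp2 (now Ccn5) was called lower in null castrated males, where no array was above background, at least 5.35-fold (limma adjusted p = 0.00463), and in null sham females, by a difference of -2.42 ± 0.46 (adjusted p = 0.0162). With normexp and quantiles the Wisp2 differences were -1.0 (adjusted p = 0.00783) in castrated males and -1.05 (adjusted p = 0.00879) in sham females, both called. Without the 9 arrays neither was called, with adjusted p = 0.214 in castrated males and a difference of -1.60 (adjusted p = 0.403) in sham females, and the sham female call was lost on leaving out any of 3 arrays (adjusted p 0.0637 to 0.0998). Smad2, a transducer of TGF-beta signals, was 0.54 ± 0.12 (adjusted p = 0.0223) higher in WT sham females than males, a call lost on leaving out any of 4 arrays (adjusted p 0.0793 to 0.107) and with normexp and quantiles, at 0.37 (adjusted p = 0.157). The growth factor Tgfb2 was 0.50 ± 0.12 (adjusted p = 0.0277) higher in null glands over the 4 pairs. Of 18 interstitial matrix partners, Fbln1 was 0.41 ± 0.10 (adjusted p = 0.0286) higher over the 4 pairs. Leaving out any of 6 arrays (adjusted p 0.0507 to 0.0593) ended the Fbln1 call, and any of 3 arrays (adjusted p 0.0514 to 0.056) that of Tgfb2. Of the interstitial partners none was called in the single null against WT comparisons. The medians of these lists in castrated males were 0.00 and 0.06, and in sham females 0.01 and 0.23.

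Markers of the cell types in the gland were read beside these differences. Of 7 capsule and stroma markers, Gli1, which marks capsule cells, was called: 1.60 ± 0.36 (adjusted p = 0.0456) higher in null than WT castrated males, 1.86 ± 0.36 (adjusted p = 0.0116) higher after castration in null males and 1.71 ± 0.36 (adjusted p = 0.0247) higher in null sham females than males. Gli1 in males read -0.54, -0.65 and -0.37 in WT sham, -0.05, -0.66 and -0.22 in WT castrated, -0.60, -0.58 and -0.55 in null sham and 1.18, 1.71 and 0.97 in null castrated males. Gli1 in females read -0.15, -0.59 and -0.12 in WT sham, 0.27, 0.40 and 0.39 in WT testosterone, 1.84, 1.64 and -0.08 in null sham and -0.80, 0.16 and -0.11 in null testosterone females. The 3 null castrated males and null sham female replicates 1 and 2 were the highest arrays, and the castrated male Gli1 call was lost on leaving out any of 19 arrays (adjusted p 0.0538 to 0.245). The castration call of Gli1 was lost on leaving out any of 2 arrays (adjusted p 0.0595 to 0.067) and the sex call on any of 5 arrays (adjusted p 0.0839 to 0.147), and without the 9 arrays none of the 3 Gli1 differences was called, at 1.28 (adjusted p = 0.999), 1.52 (adjusted p = 0.971) and 1.68 (adjusted p = 0.622). The other 6 capsule and stroma markers were not called, and the list's median was 0.06 in castrated males, -0.07 for castration in null males and 0.02 for null females against males. The summed level of all 7 capsule markers was 53.2 to 70.5 in WT and 70.6 to 93.02 in null castrated males.

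None of the 8 mural, 6 chromaffin, 6 adipocyte, 4 macrophage, 5 liver and 4 blood markers measured was called in any of the 13 comparisons. Summed levels, WT against null castrated males, were 31.9 to 35.1 and 33.3 to 42.3 for mural, 671 to 895 and 733 to 868 for chromaffin, and 14.2 to 15.8 and 15.9 to 17.8 for macrophage markers. Adipocyte markers summed to 782 to 1219 in WT and 348 to 815 in null sham females. Blood markers summed to 75.9 to 130 in WT and 241 to 394 in null castrated males. Of 8 endothelial markers, Tek and Emcn were lower in null glands over the 4 pairs, by differences of -0.37 ± 0.09 (adjusted p = 0.0379) and -0.33 ± 0.09 (adjusted p = 0.049), and of 5 Schwann markers S100b was 0.66 ± 0.15 (adjusted p = 0.0248) higher. The Tek call was lost on leaving out any of 17 arrays (adjusted p 0.0501 to 0.0793) and the Emcn call on any of 21 arrays (adjusted p 0.0511 to 0.0976), and with slide as a block Tek gave -0.33 (adjusted p = 0.0761). The S100b call was lost without 1 array. Of 8 adrenocortical markers, Star and Nr5a1 were 0.84 ± 0.19 (adjusted p = 0.0213) and 1.62 ± 0.26 (adjusted p = 0.0016) higher in WT sham females than males. The adrenocortical markers were all measured and above background, with sums of 1214 to 2340 over the groups. The part of cell composition in the member differences was not tested.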

How the data were processed

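RNA of 24 adrenal gland samples, 3 in each of 8 groups named by the labels, was isolated by a Qiagen protocol and amplified with Cy3 label (Agilent, low RNA input), per the labels. The raw files of the authors hold, per the file headers, spot intensity from Agilent Feature Extraction 10.7.3.1, including a processed signal with background subtracted and not normalised between arrays. The deposited value table holds log2 values with identical distributions on every array (sorted columns differ by at most 0.0603), which correlate at 0.998 or more with log2 of the raw mean signal; it was used as an alternative. Probe positions are those of the raw files (mm9), and exons or UTRs were not assigned.

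Levels are log2 of the processed signal minus each array's 75th percentile over non-control spots, with outlier spots left out and spots of a probe averaged. Probes well above background on at least 3 arrays were kept (36832 of 55681), and each gene name took its brightest probe. One limma 3.58.1 fit (R 4.3.3) of 8 group means had 16 residual degrees of freedom. It gave 10 unpaired comparisons of 2 groups each, 1 average and 2 interactions. P-values were adjusted by Benjamini-Hochberg over 26372 features, and under 0.05 was called. The fit was tested on simulated data. Python 3.11.15 was used for the rest. The number of arrays, and not a count of reads, limits the precision.

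Members, gene lists (collagen processing, basement membrane partners, interstitial partners, proteases, fibrogenic signalling, and markers of capsule, endothelial, mural, adrenocortical, chromaffin, Schwann, adipocyte, macrophage, liver and blood cells) and tests were chosen with earlier results of these data known. A gene of this family and the results that need it are not reported here. Named were all members called in a comparison, the 3 with the largest difference in each, and called genes of the lists; arrays are given singly for called members and for the brightest probe of each class. Upstream sequences are from RefSeq (GRCm38.p6). Alternatives were other normalisations, filters, probes, updated gene symbols, blocks for replicate number and slide, RNA integrity, array weights, a trended variance, and leaving out arrays. Leaving out the 9 arrays with opposite sex-linked signal, or the 2 with liver transcripts, was chosen after seeing the data.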

Additional observations from a re-analysis of the deposited data

How the results depend on the processing

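Over all alternatives and comparisons, 409 counts of called members lay within 1.5 times the value with all arrays and the rest did not. Leaving out each array in turn gave 0 to 0 called members in sham males, 1 to 3 in castrated males, 0 to 1 in sham females and 0 to 0 in testosterone-treated females (null against WT), 0 to 0 and 1 to 2 for castration in WT and null, 0 to 0 and 0 to 2 for testosterone in WT and null, 1 to 3 and 0 to 5 for sex in WT and null, 2 to 6 for the average, and 0 to 1 for each interaction. Array weights gave 3 called members in sham males, 5 in castrated males, 4 in sham females, 3 and 9 for castration in WT and null, 1 for testosterone in WT, 5 and 13 for sex in WT and null, 8 for the average, and 1 for each interaction. With replicate number as a block the count was 4 for castration in null males, 1 for testosterone in WT, 8 for sex in null and 6 for the average. Deviations from group means correlated at a mean of 0.231 (-0.40 to 0.693) between same-numbered arrays of different groups, and at -0.111 between other-numbered ones. Replicate number equals slide except on the fourth slide, so this block is close to the slide block and is shown here alone. With slide as a fixed block the count was 4, 1, 6 and 8 for castration in null, testosterone in WT, and sex in WT and null, and with slide as a random block 4 for castration in null, 3 for testosterone in WT, 8 for sex in null, 5 for the average and 1 for the castration interaction. The covariate for RNA integrity gave 1 for testosterone in null, 6 for sex in WT and 4 for the average. Quantile normalisation gave 0 in sham females, 1 for testosterone in null and 2 for sex in null. The deposited value table gave 1 in castrated males, 2 in sham females, 1 each for testosterone in WT and null and 2 for sex in null. Background modelling by normexp with quantiles gave 2 in sham females, 1 each for testosterone in WT and null, 1 for sex in WT and 1 for the average. No filter, or all probes tested, gave 1 for testosterone in null and 1 for sex in null, and a trended variance gave 1 for testosterone in null. Without the fourth slide the count was 0 in sham females, 1 for testosterone in null and 1 for the average. Without the 2 liver arrays it was 1 for testosterone in null and 5 for the average. Without the 9 arrays it was 1 for castration in WT and 1 for testosterone in null, each time Col5a3. No pair call made with all arrays was then kept. The other pair comparisons had 1 array left in a group or no value, and their counts are not given. Col24a1, whose sex difference is described above without a test, is among the members counted for sex with array weights, replicate number, either slide block and RNA integrity. The share of all features called under each alternative is not given here, so these counts are not a result about the members. The causes were not tested.

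Of the named differences, 3 changed sign under some alternative. Col24a1 in sham males, null against WT, was 0.84 with all arrays and -0.50 without the 9 arrays. In sham females it was 1.11, but -0.016 without the fourth slide and -1.09 without the 9 arrays, and leaving out each array in turn gave -0.016 (without WT sham female replicate 3) to 2.21. The Col6a4 castration interaction was 1.27, but -0.067 with normexp and quantiles and -0.031 in the deposited value table. None of these was called. Both genes were near background, where the arrays limit what can be read.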
